A study of Mus musculus with 7 samples.

Results

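Changes in gene expression were measured by RNA sequencing in RAW264.7, a line of mouse macrophage-like cells, after knockdown of Dpep2 with the short hairpin shDpep2.968, and were set against cells with the control hairpin shNT. The 5 libraries were 2 of shDpep2.968 and 3 of shNT. The labels name the same line and total RNA for all of them, and no agent other than the hairpins. How the hairpins were delivered, whether each line was a clone or a pool, and the hairpin sequences were not given in the sources used here. Every gene symbol with at least 10 counts in 2 or more of these 5 libraries was tested, which gave 13200 of the 55417 symbols of the count table. Nothing in the labels tells whether replicates came from separate cultures, so the spread behind the p-values may be technical. A second hairpin, shDpep2.759 (n = 2), is used below only to show where shDpep2.968 differed from it.

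Dpep2 is the gene of a dipeptidase anchored in the membrane that can convert leukotriene D4 to leukotriene E4. Macrophages respond to lipids, microbial products and interferons through a small number of shared gene programmes. SREBP transcription factors switch on sterol and fatty acid synthesis genes. LXR receptors sense oxysterols and switch on sterol export. ISGF3 and related factors bind the interferon-stimulated response element in front of antiviral genes, and ATF4 binds amino acid response elements in front of genes of amino acid supply.

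The 5 libraries held 16548648 to 18252706 counts each, of which 99.88% to 99.91% fell on tested symbols. Within the groups, no library repeated another within counting error (chi-square per degree of freedom 15.1 to 25.5). All 10 macrophage markers were tested, and their summed level was 14907 to 16478 CPM (counts scaled to a common library size) with shNT and 15761 to 15931 CPM with shDpep2.968. Of the markers of other cell types, Ly6g, Ltf, Cd3e, Trac, Epcam and Col1a2 had 0 counts in all 5 libraries. Others did have counts in every library, among them the fibroblast markers Dcn (7 to 17) and Lum (3 to 22). The endothelial marker Cdh5 had 15 to 24 counts and the B cell marker Cd79a 25 to 58. Of 7 neutrophil markers only S100a8 was tested, and it did not pass. Among 6 B cell markers, Ighm was lower with shDpep2.968 at 6.65 and 7.89 CPM, against 11.2 to 15.8 CPM with shNT. In such bulk samples, fewer cells of a type and less RNA per cell cannot be told apart, and the part of these markers in the results was not tested. The median absolute log2 difference between the first shDpep2.968 and the first shNT library was 0.197, just above the range of 0.150 to 0.196 between shNT libraries and below the 0.208 between the shDpep2.968 libraries. The second shDpep2.968 library stood farther from all 3 shNT libraries, at 0.234 to 0.341, and many counts below change when it is left out.

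Dpep2 itself was lower in both libraries carrying the hairpin. It had 920, 1100 and 933 counts in the shNT libraries and 387 and 311 counts with shDpep2.968, or 56.2, 60.0 and 52.4 CPM against 22.6 and 18.0 CPM. The groups did not overlap, and 36.1% of the control level remained (log2 fold change -1.47 with SE 0.14 and a 95% interval of -1.77 to -1.17, adjusted p = 1.75e-05 by edgeR's quasi-likelihood test). Of its relatives, Dpep1 was at 0 counts throughout and Dpep3 at 2 to 6. Of 23 genes listed as lying near Dpep2 on mouse chromosome 8, 18 were tested. Among those tested, Ddx19a lies 4970 kb from Dpep2 and is not a near neighbour. Pskh1 and Esrp2 were lower, by log2 fold changes of -0.73 and -1.78 (edgeR adjusted p = 0.00697 and 0.0330), and none was higher. The lower share was 11.1%, against 5.7% of all tested genes. Pskh1 lies 53.1 kb and Esrp2 124 kb from Dpep2 in the RefSeq table of GRCm38.p6. The nearest tested genes, Ddx28 and Dus2 at 3.59 and 5.45 kb, did not pass. Both calls were lost without shDpep2.968 replicate 2 (adjusted p = 0.0815 for Pskh1 and 0.236 for Esrp2), and that of Esrp2 also without shNT replicate 2 or 3 (0.0960 and 0.0765).

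Across all genes, 1361 of 13200 (10.3%) differed between shDpep2.968 and shNT, 609 higher (4.61%) and 752 lower (5.7%), at an adjusted p under 0.05 by edgeR's quasi-likelihood test. Most differences were small. The median absolute log2 fold change of the changed genes was 0.68, 518 of them (38.1%) differed by less than 1.5-fold, 320 by at least 2-fold (152 higher, 168 lower) and 66 by at least 4-fold (34 higher, 32 lower). The groups did not overlap in any of the 1361, nor in 5750 (43.6%) of all tested genes. The share that passed depended on the level: 4.30% of those averaging under 1 CPM passed, against 8.87% at 1 to 5 CPM, 13.8% at 5 to 20 CPM, 10.5% at 20 to 100 CPM and 10.6% above 100 CPM. The median SE of the log2 fold change fell over the same classes from 0.53 to 0.12. Of 11256 tested protein-coding genes 548 were higher and 692 lower (11%), and of 571 long non-coding RNA genes 14 were higher and 12 lower (4.55%), as the RefSeq table classes them. The number of changed genes rested on single libraries: it was 495 when shDpep2.968 replicate 2 was left out, 2054 for shDpep2.968 replicate 1, 818 for shNT replicate 2 and 592 for shNT replicate 3. A fit of all 7 libraries of the series gave 707.

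**Figure D1:**
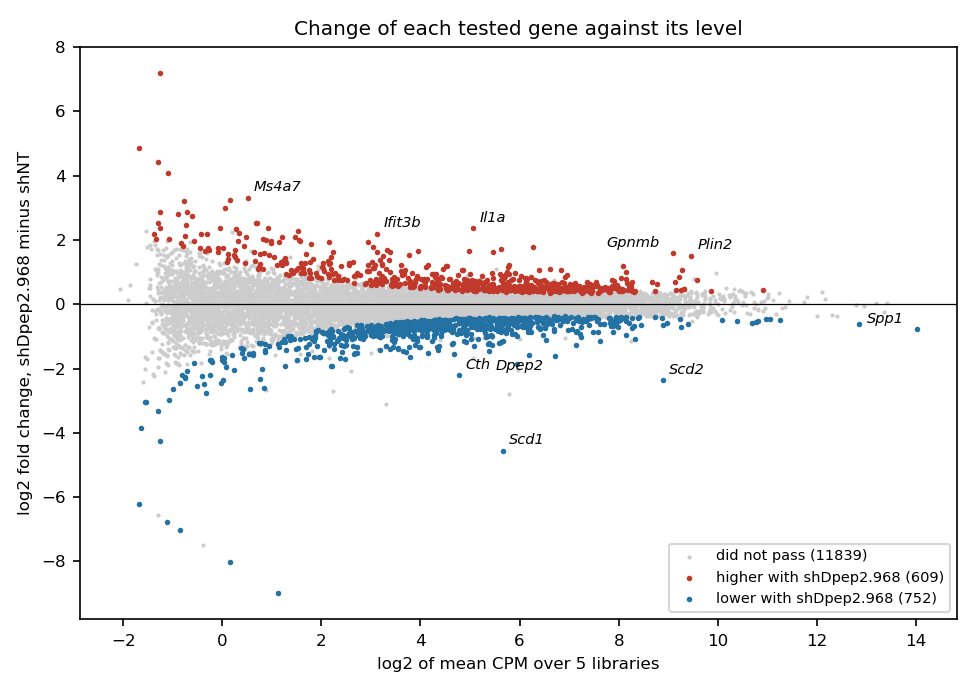
Log2 fold change of each of 13200 tested genes, shDpep2.968 minus shNT (vertical axis), against the log2 of its mean CPM over the 5 libraries (horizontal axis). Red points are the 609 genes that passed higher, blue points the 752 that passed lower and grey points those that did not pass, and Scd1 at -4.55 lies below every other gene labelled.

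The change also followed base composition. Higher genes had a median GC content of 46.2% and lower genes of 53.8%, against 49.3% over the tested genes with a transcript match. Across 12653 genes the log2 fold change had a Spearman correlation of -0.35 with GC content and 0.12 with length (genes are not independent replicates, so no p is given). With per-library GC and length offsets 2478 genes passed, 1285 higher and 1193 lower, and 1266 of these were also among the 1361. The part of base composition in the results that follow was not tested gene by gene. Of the 127 called genes that the naming rule chose, the offsets ended the call of 1, H2-Q6, and the offsets with a replicate block ended 19. Those genes were chosen for large changes or small p, so these counts do not describe the other genes.

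The 2 largest decreases by the naming rule, and Fads2 among its 12, were genes that introduce double bonds into fatty acids. Scd1, a stearoyl-CoA desaturase, stood at 67.5, 92.9 and 85.9 CPM with shNT and at 4.20 and 2.78 CPM with shDpep2.968. Every shDpep2.968 value was far below every shNT value, and 4.26% of the control level was left, a log2 fold change of -4.55 (SE 0.21, edgeR adjusted p = 2.47e-09). Its paralog Scd2, at 676, 696 and 725 CPM in control, was at 150 and 124 CPM with the hairpin and fell by 2.36 on the log2 scale (SE 0.13, edgeR adjusted p = 3.22e-08). Fads2, the delta-6 desaturase, went from 128, 163 and 143 CPM to 46.6 and 47.4 CPM, with a log2 fold change of -1.62 (SE 0.13, edgeR adjusted p = 3.01e-06). These 3 calls held without each library in turn.

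The list of fatty acid synthesis, desaturation and elongation genes held 24 members, of which 21 were tested, 12 fell and none rose. Their median log2 fold change was -0.69, beside -0.00 over all tested genes. Lpin1, a phosphatidate phosphatase that makes diacylglycerol, was at 20.6, 25 and 26.3 CPM with shNT and at 9.63 and 7.19 CPM with shDpep2.968 (log2 fold change -1.51, edgeR adjusted p = 7.02e-05). The other called members were Acss2, Fads1, Acly, Acacb, Srebf1, Acsl3, Mid1ip1 and Acaca, with log2 fold changes from -1.14 for Acss2 to -0.50 for Acaca. Among them, Acly and Acss2 supply acetyl-CoA and Acaca and Acacb carboxylate it. The other 9 tested members did not pass. Srebf1, which encodes the SREBP-1 factor itself, had a log2 fold change of -0.79.

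Sterol genes were lower almost throughout. Of 28 listed genes of sterol synthesis, uptake and SREBP regulation 26 were tested, 20 fell, none rose, and 25 of the 26 had a negative log2 fold change (median -0.70). Insig1, which holds SREBPs in the endoplasmic reticulum when sterols are plentiful, was at 47.5, 58.5 and 56.5 CPM with shNT and at 23.9 and 23.4 CPM with shDpep2.968. Fdps, which makes farnesyl diphosphate, was at 220, 258 and 281 CPM against 112 and 115 CPM. The log2 fold changes of Insig1 and Fdps were -1.20 and -1.16, with SEs of 0.14 and 0.13 (edgeR adjusted p = 7.02e-05 and 6.07e-05). Tm7sf2, a sterol C14 reductase, fell by 1.69 on the log2 scale from a lower level of 6.11 to 9.60 CPM (edgeR adjusted p = 0.000672). Srebf2, which encodes SREBP-2, had a log2 fold change of -0.67 (edgeR adjusted p = 0.00643). A fit of all 7 libraries called 14 members lower, a fit with a replicate block 9, and leaving out a single shNT library 15 to 20.

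LXR targets and genes of sterol efflux were mixed. Of 18 listed genes 13 were tested, 6 fell, 1 rose and 6 did not pass (median -0.46, with 5 of the 13 positive). Lpcat3, which places polyunsaturated chains in phospholipids, was at 62.3, 70.9 and 56.0 CPM with shNT and at 28.7 and 27.6 CPM with shDpep2.968 (log2 fold change -1.16, edgeR adjusted p = 7.86e-05). Of the sterol exporters, Abcg1 had a log2 fold change of -0.89 (edgeR adjusted p = 0.000372), and Abca1 was at 19.7, 16.6 and 15.7 CPM against 9.69 and 7.65 CPM (0.00220). Nr1h3, which encodes LXR alpha, rose from 6.05, 5.89 and 4.16 CPM to 10.2 and 11.7 CPM (log2 fold change 1.03, SE 0.20, edgeR adjusted p = 0.00457). The remaining lower members were Mylip, Cyp27a1 and Pltp. The count of lower members was 3 without shDpep2.968 replicate 2, and that of higher members was 3 without shDpep2.968 replicate 1.

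Genes of lipid storage went both ways. Of 22 listed genes of lipid uptake, droplets and glycerolipids 19 were tested, 5 rose and 3 fell (median 0.05). Plin2, the coat protein of lipid droplets, was at 406.4, 406.4 and 405.5 CPM in the 3 shNT libraries and at 1004 and 1313 CPM with shDpep2.968. That is a 2.85-fold rise (log2 fold change 1.51, SE 0.13, edgeR adjusted p = 3.74e-06). Hilpda, an inhibitor of triglyceride breakdown, rose 1.93-fold, and Cpt1a, the gate of fatty acid entry into mitochondria, 1.95-fold (edgeR adjusted p = 0.000149 and 9.98e-05). Fabp5, a cytosolic fatty acid carrier, was at 292, 300 and 269 CPM against 167 and 149 CPM and fell by 0.86 on the log2 scale (edgeR adjusted p = 0.000365). Cd36 and Lipa were also higher and Fabp4 and Dgat1 also lower. With a replicate block 3 members were higher and 2 lower.

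**Figure D2:**
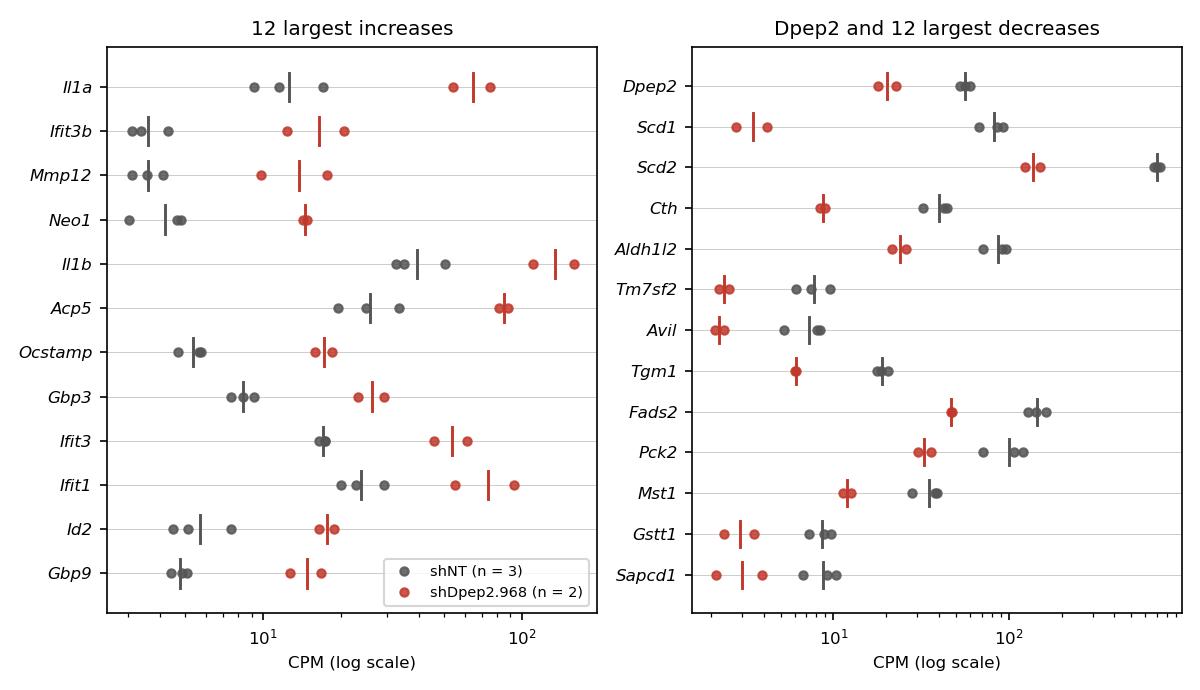
CPM on a log scale (horizontal axes) of the 12 largest increases (left) and of Dpep2 with the 12 largest decreases (right) in each library. Grey points are 3 shNT libraries, red points 2 shDpep2.968 libraries and short vertical lines the group means, and no gene has overlapping groups, as the choice of genes required.

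In the leukotriene and prostaglandin pathway, to which Dpep2 belongs, 23 of 28 listed genes were tested, 5 fell and 1 rose (median -0.16). Besides Dpep2, Alox5, the 5-lipoxygenase that starts leukotriene synthesis, was at 41.2, 48.8 and 42.6 CPM with shNT and at 19.4 and 16.8 CPM with shDpep2.968 (log2 fold change -1.29, SE 0.14, edgeR adjusted p = 5.48e-05). Ltb4r1, the receptor of leukotriene B4, was at 23.5, 27.8 and 28.1 CPM against 10.4 and 10.6 CPM (log2 fold change -1.33, SE 0.15, edgeR adjusted p = 6.07e-05). On the prostaglandin side, Hpgds, a prostaglandin D synthase, rose from 22.5, 18.8 and 18.8 CPM to 36.4 and 47.0 CPM (2.08-fold, edgeR adjusted p = 0.000313). The cyclooxygenase gene Ptgs1 (log2 fold change -0.81, edgeR adjusted p = 0.0126) and the prostacyclin receptor gene Ptgir were also lower. The lower members numbered 3 without shNT replicate 3 or shDpep2.968 replicate 2, and Ptgs1 lost its call in both cases (adjusted p = 0.0528 and 0.113). The higher members numbered 3 without shNT replicate 1 and 4 without shDpep2.968 replicate 1.

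Of 38 listed genes that ATF4 controls in amino acid supply and stress 35 were tested, 17 fell, none rose and 18 did not pass (median -0.40). Cth, which makes cysteine from cystathionine, was at 32.2, 44.4 and 42.9 CPM with shNT and at 8.99 and 8.35 CPM with shDpep2.968, and it fell by 2.20 on the log2 scale (SE 0.17, edgeR adjusted p = 1.54e-06). Aldh1l2, a mitochondrial folate enzyme, was at 71.5, 96.8 and 91.6 CPM against 26.0 and 21.6 CPM (log2 fold change -1.86, SE 0.15, edgeR adjusted p = 3.29e-06). In both genes the first shNT library was the lowest of the controls and still stood above both shDpep2.968 libraries. Pck2, the mitochondrial phosphoenolpyruvate carboxykinase, fell by 1.59 on the log2 scale, the neutral amino acid transporter gene Slc1a4 by 1.29 and Psph, the last step of serine synthesis, by 0.92 (edgeR adjusted p = 0.00160, 0.000365 and 0.000402). Atf4 itself had a log2 fold change of -0.40 (edgeR adjusted p = 0.0421). Only 9 members were lower without shDpep2.968 replicate 2, and Pck2 lost its call (adjusted p = 0.117). Cytosolic aminoacyl-tRNA synthetase genes include several that ATF4 also controls. Of 20 tested members 1 passed, and it was lower (5%, near the 5.7% of all tested genes). That was Cars, with a log2 fold change of -0.43 (edgeR adjusted p = 0.0345), and its call was lost without any 1 of 4 libraries, all except shNT replicate 1 (adjusted p from 0.0565 to 0.167). The median of these 20 was -0.20, and 17 of them were negative.

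Among the remaining large decreases, Avil, an actin-binding protein of the villin family, and Tgm1, a transglutaminase, fell by 1.69 and 1.64 on the log2 scale. Tgm1 was at 18.6, 20.4 and 17.8 CPM with shNT and at 6.07 and 6.09 CPM with shDpep2.968 (edgeR adjusted p = 2.76e-05). Mst1, which encodes macrophage stimulating protein, was at 27.9, 38.0 and 38.9 CPM against 12.6 and 11.3 CPM (log2 fold change -1.55, edgeR adjusted p = 4.47e-05). The glutathione transferase gene Gstt1 fell by 1.54 and Sapcd1 by 1.53 (edgeR adjusted p = 0.000820 and 0.00239). All of these lay below the shNT range in both libraries, as the choice of genes required.

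Of the 37 lists, that of the type I interferon response had the most higher members, and it was also the longest. Its higher share was 50.8%, against 4.61% of all tested genes and 78.6% of the interferon-inducible GTPases. Of 60 listed genes of the type I response 59 were tested, 30 rose and 1, the receptor subunit Ifnar2, fell (median 0.42, and 51 of 59 were positive). Ifit3, an antiviral RNA-binding protein, was at 17.3, 16.4 and 17.4 CPM with shNT and at 45.5 and 61.3 CPM with shDpep2.968 (3.14-fold, log2 fold change 1.65, SE 0.14, edgeR adjusted p = 4.21e-06). Its close paralog Ifit3b was at 4.28, 3.11 and 3.37 CPM against 12.4 and 20.5 CPM (4.59-fold, edgeR adjusted p = 3.26e-05). How reads were divided between those 2 near-identical genes is uncertain. Ifit1 rose 3.10-fold (edgeR adjusted p = 0.00562), the oligoadenylate synthetase-like gene Oasl2 2.16-fold (4.47e-05) and the mitochondrial nucleotide kinase gene Cmpk2 2.11-fold (7.02e-05). In each of these the second shDpep2.968 library was the higher one. Irf9, which encodes a subunit of ISGF3, had a log2 fold change of 0.40 (edgeR adjusted p = 0.0395). The count of higher members was 20 without shNT replicate 3 and 11 with a replicate block. Ifnar2 lost its call without any 1 of the libraries other than shNT replicate 1.

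Interferon-inducible GTPases, which attack vacuoles that hold pathogens, had the highest median of the 37 lists. Of 17 listed genes 14 were tested, 11 rose and none fell, and their median log2 fold change was 1.34. Gbp3 was at 9.16, 7.47 and 8.37 CPM with shNT and at 23.1 and 29.3 CPM with shDpep2.968 (3.15-fold, SE of the log2 fold change 0.16, edgeR adjusted p = 1.75e-05). Gbp9 rose 3.08-fold (edgeR adjusted p = 7.02e-05), Irgm1 2.11-fold (0.000126) and Igtp 1.68-fold (0.00135). In all 14 tested members both shDpep2.968 libraries lay above all 3 shNT libraries, as they did in 20.9% of all tested genes. Leaving out shDpep2.968 replicate 2 brought the higher members to 6. These genes are close relatives of each other, so the division of reads among them is uncertain. Antigen presentation genes, many of which interferon also induces, gave no higher call. Of 25 tested members of 29 none passed higher and 8% passed lower, against 4.61% and 5.7% of all tested genes. Without shNT replicate 1, 1 member passed higher, and under the 18 alternatives at most 4 did. Cd74, the invariant chain, fell by 0.72 on the log2 scale from 668, 736 and 778 CPM to 429 and 453 CPM (edgeR adjusted p = 0.00168). H2-Q6 also passed lower (edgeR adjusted p = 0.0487), and it lost its call without shNT replicate 2, shNT replicate 3 or shDpep2.968 replicate 2 (adjusted p = 0.0573, 0.181 and 0.314).

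To show the sequence before genes that rose together, the 250 bases before each RefSeq gene start (GRCm38.p6) were searched on both strands for the core letters of the interferon-stimulated response element, GAAANNGAAA (N is any base). A promoter was matched by symbol for 9615 of the 13200 tested genes. The letters were present in 3.46% of all 27025 promoters of that length and in 3.45% of those of tested genes. They stood in 9.78% of promoters of higher genes (44 of 450), in 2.89% of lower genes and in 3.16% of genes that did not pass. Of the 11 higher GTPases 8 had a matched promoter, and all 8 held the letters, as did 1 of 2 that did not pass. In the type I list 8 of 21 higher members held them (38.1%) and 10 of 23 that did not pass (43.5%). A match is a description of the sequence and not evidence of binding.

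The windows below show the match nearest the gene start in capitals, read 5′ to 3′ on the gene's strand, in GTPase and Ifit genes that rose. Where the capitals read TTTC first, the match is on the opposite strand. They are shown because Igtp and Irgm2, and likewise Ifit3 and Ifit3b, carry the letters in nearly the same surroundings, beside relatives whose flanks differ.
Igtp (chr11:58199492-58199555, plus strand): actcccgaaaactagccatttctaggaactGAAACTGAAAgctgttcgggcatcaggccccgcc
Irgm2 (chr11:58214883-58214952, plus strand): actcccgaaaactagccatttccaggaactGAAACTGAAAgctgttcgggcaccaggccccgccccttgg
Irgm1 (chr11:48871421-48871474, minus strand): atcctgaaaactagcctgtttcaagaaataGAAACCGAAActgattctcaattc
Gbp3 (chr3:142559975-142560043, plus strand): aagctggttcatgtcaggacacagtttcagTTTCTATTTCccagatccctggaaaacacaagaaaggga
Gbp7 (chr3:142530253-142530322, plus strand): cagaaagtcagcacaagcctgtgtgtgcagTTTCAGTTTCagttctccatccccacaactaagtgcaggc
Gbp2 (chr3:142620574-142620643, plus strand): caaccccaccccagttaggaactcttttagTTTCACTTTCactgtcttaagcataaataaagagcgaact
Ifit3 (chr19:34583377-34583446, plus strand): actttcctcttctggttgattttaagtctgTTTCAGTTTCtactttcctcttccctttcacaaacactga
Ifit3b (chr19:34607773-34607842, plus strand): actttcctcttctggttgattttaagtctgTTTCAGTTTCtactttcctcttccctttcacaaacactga
The windows of Ifit3 and Ifit3b are the same in all 70 bases. Their log2 fold changes were 1.65 and 2.20, and those of Igtp and Irgm2 were 0.75 and 0.70. Gbp2 rose from 1.34, 0.76 and 0.62 CPM to 2.57 and 4.58 CPM, and Gbp7 had a log2 fold change of 0.91.

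The same search was made for the groups that fell. The amino acid response element core TGATGNAA stood in 3.91% of all promoters and 2.59% of those of tested genes. It stood in 3.61% of promoters of lower genes and in 4 of 14 lower members of the ATF4 list with a promoter, against 3 of 16 that did not pass. The 4 were Asns, Pycr1, Pck2 and Chac1, and they are shown because they are the lower members of that list with a match.
Asns (chr6:7693210-7693262, minus strand): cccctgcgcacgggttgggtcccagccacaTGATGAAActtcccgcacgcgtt
Pycr1 (chr11:120643814-120643881, minus strand): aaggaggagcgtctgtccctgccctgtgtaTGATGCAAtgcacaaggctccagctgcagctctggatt
Pck2 (chr14:55540133-55540200, plus strand): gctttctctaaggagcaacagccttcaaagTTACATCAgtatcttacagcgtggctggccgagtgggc
Chac1 (chr2:119351019-119351086, plus strand): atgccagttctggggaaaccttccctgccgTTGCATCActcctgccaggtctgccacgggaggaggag
Asns, the asparagine synthetase, and Chac1, a glutathione-degrading enzyme, had log2 fold changes of -0.62 and -1.33, and Pycr1, a proline synthesis enzyme, of -1.91. The sterol regulatory element core TCACNCCAC was found in 1.22% of all promoters, in 1.81% of lower genes and in 1 of 13 lower sterol genes with a promoter, Hmgcs1. Another spelling or distance of that element would not have been found. Of all promoters, 15 held the interferon and sterol letters, 61 the interferon and amino acid letters and 15 the sterol and amino acid letters.

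**Figure D3:**
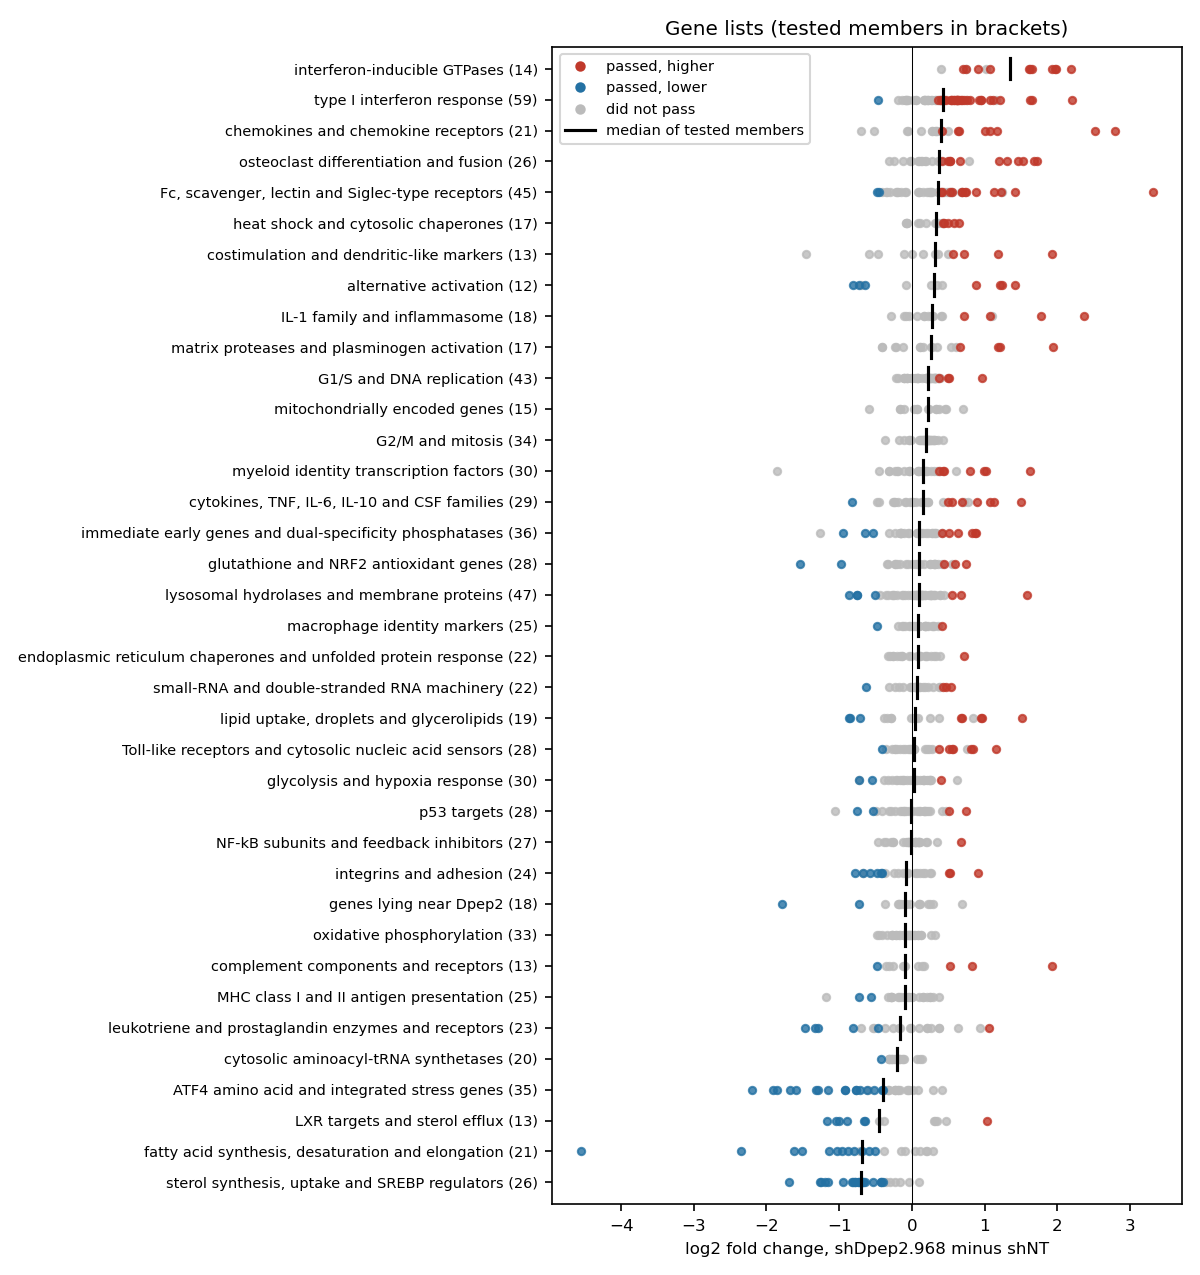
Log2 fold change, shDpep2.968 minus shNT (horizontal axis), of the tested members of 37 gene lists, ordered by median. Each point is a gene (red passed higher, blue passed lower, grey did not pass) and black bars are medians, which run from -0.70 for sterol genes to 1.34 for interferon-inducible GTPases.

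Interleukin-1 genes gave the largest increase by the naming rule. Il1a was at 16.9, 11.5 and 9.21 CPM with shNT and at 53.9 and 75 CPM with shDpep2.968 (5.16-fold, log2 fold change 2.37, SE 0.24, edgeR adjusted p = 0.000898). Il1b was at 50.1, 32.6 and 35 CPM against 110 and 159 CPM (3.43-fold, edgeR adjusted p = 0.00137). The first shNT library was the highest of the controls in both. Of 22 listed genes of the IL-1 family and the inflammasome 18 were tested, 4 rose and none fell (median 0.28). The higher share was 22.2%, against 4.61% of all tested genes. The other higher members were the receptor antagonist Il1rn (2.10-fold, edgeR adjusted p = 0.00344) and the inflammatory caspase gene Casp4 (1.64-fold, 0.00245). Il1rn lost its call without shDpep2.968 replicate 2 (adjusted p = 0.0665).

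NF-kB subunits and feedback inhibitors gave 1 higher call among 27 tested (3.7%, near the 4.61% of all tested genes). Tnfaip3, which encodes the inhibitor A20, was at 20.2, 20.7 and 21.5 CPM with shNT and at 32.2 and 34.3 CPM with shDpep2.968 (log2 fold change 0.68, edgeR adjusted p = 0.00341). No member was lower, but 2 were without shNT replicate 1 and 3 without shDpep2.968 replicate 1. Of 29 tested cytokines and receptors of the TNF, IL-6, IL-10 and CSF families (30 listed) 7 rose and 1, the G-CSF receptor Csf3r, fell (median 0.15). Il6 was at 7.64, 4.36 and 4.44 CPM against 13.2 and 17.8 CPM, and rose 2.84-fold (edgeR adjusted p = 0.00104). The anti-inflammatory cytokine gene Il10 rose 2.11-fold, Tnfsf12, which encodes TWEAK, 2.18-fold and the TNF receptor gene Tnfrsf1b 1.62-fold (edgeR adjusted p = 0.000288, 0.00138 and 0.00200). With a replicate block 3 higher members were left, and Csf3r lost its call.

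Of 27 listed chemokines and chemokine receptors 21 were tested, 8 rose and none fell (median 0.40). The higher share was 38.1%, against 4.61% of all tested genes. Ccl2, which draws monocytes, was at 235, 199 and 170 CPM with shNT and at 362 and 444 CPM with shDpep2.968 (2.01-fold, edgeR adjusted p = 0.000365). Cxcl16 rose 1.56-fold, from 36.3, 35.9 and 36.6 CPM to 54.8 and 58.0 CPM (edgeR adjusted p = 0.00326). Ccl12 and the receptor gene Ccr3 rose 5.71-fold and 6.96-fold from control levels under 1 CPM (edgeR adjusted p = 0.000890 and 0.00699). For Ccr3 the 95% interval of the log2 fold change ran from 1.55 to 4.05. Only 5 were higher without shNT replicate 3, and 4 without shDpep2.968 replicate 2.

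RAW264.7 cells are able to become osteoclasts. Of 30 listed osteoclast genes 26 were tested, 11 rose, none fell and 15 did not pass (median 0.37). The higher share was 42.3%, against 4.61% of all tested genes. Acp5, the tartrate-resistant acid phosphatase, was at 33.4, 24.9 and 19.5 CPM with shNT and at 88.2 and 81.7 CPM with shDpep2.968 (3.28-fold, SE of the log2 fold change 0.17, edgeR adjusted p = 7.02e-05). Ocstamp, needed for the fusion of osteoclast precursors, was at 5.74, 5.62 and 4.66 CPM against 18.3 and 15.9 CPM (3.20-fold, edgeR adjusted p = 3.68e-05). The kinase gene Src rose 2.47-fold and the tetraspan gene Tm4sf19 2.29-fold (edgeR adjusted p = 0.000304 and 7.02e-05). In none of these 4 did the groups overlap, which held for every called gene and for 43.6% of all tested genes. The count of higher members was 6 without shNT replicate 3, 7 in a fit of all 7 libraries and 4 with a replicate block. Matrix proteases and plasminogen activation genes had 4 higher and none lower of 17 tested among 22. The macrophage elastase gene Mmp12 was at 4.09, 3.11 and 3.54 CPM against 9.75 and 17.7 CPM (3.83-fold, edgeR adjusted p = 0.000126). Plau, the urokinase gene, rose 2.27-fold and Mmp9 1.58-fold (edgeR adjusted p = 0.000123 and 0.00304). Mmp13 passed (edgeR adjusted p = 0.0304), but not in the fit of all 7 libraries, nor without shNT replicate 3 (0.0968) or shDpep2.968 replicate 2 (0.222).

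Surface receptors of macrophages gained more members than they lost. Of 51 listed Fc, scavenger, lectin and Siglec-type receptors 45 were tested, 13 rose and 2 fell (median 0.36). Those were 28.9% and 4.44%, against 4.61% and 5.7% of all tested genes. Cd300a, an inhibitory receptor, was at 35.7, 36.6 and 35.7 CPM with shNT and at 78.6 and 90.5 CPM with shDpep2.968 (2.35-fold, edgeR adjusted p = 1.75e-05). Ms4a7, a tetraspan-like protein, stood at 0.367, 0.436 and 0.112 CPM against 2.45 and 3.77 CPM (edgeR adjusted p = 0.000295), and its log2 fold change of 3.32 had a 95% interval of 2.37 to 4.27. Ms4a6b and Ms4a6d rose 1.66-fold and 1.67-fold (edgeR adjusted p = 0.00576 and 0.00738), and both lost their calls without shDpep2.968 replicate 2 (0.0636 and 0.0661). The count of higher members was 7 without shNT replicate 2, 8 without shNT replicate 3 and 2 with a replicate block.

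Of 28 tested Toll-like receptors and cytosolic nucleic acid sensors (29 listed) 7 rose and 1, Irak3, fell (median 0.03). Tlr3, which senses double-stranded RNA, rose 2.23-fold from 13.3, 11.2 and 10.3 CPM to 20.4 and 31.1 CPM (edgeR adjusted p = 0.000826). Tlr2, Cgas and Tirap had log2 fold changes of 0.55, 0.56 and 0.51 (edgeR adjusted p = 0.00664, 0.0122 and 0.0359). None of those 3 passed without shDpep2.968 replicate 2 (0.0822, 0.0517 and 0.146), when the count of higher members was 1. That count was 4 without shNT replicate 2, 3 without shNT replicate 3 and 4 in a fit of all 7 libraries. Irak3 lost its call without any 1 of the libraries other than shDpep2.968 replicate 1, and in the fit of all 7. Cgas also lost its call without shNT replicate 2 (0.0587), and Tirap without shNT replicate 2 or 3 (0.136 and 0.131). Of 22 tested genes of small-RNA and double-stranded RNA machinery (23 listed), which a short hairpin passes through, 3 rose and 1 fell. Those were 13.6% and 4.55%, against 4.61% and 5.7% of all tested genes. Dgcr8 and Drosha of the microprocessor passed at log2 fold changes of 0.53 and 0.43, Eif2ak2, the kinase PKR, at 0.47 and Prkra at -0.63 (edgeR adjusted p = 0.0106, 0.0307, 0.0429 and 0.0141). None of the 4 passed without shDpep2.968 replicate 2 (adjusted p from 0.0620 to 0.346). Without shNT replicate 2 or 3, and in a fit of all 7 libraries, the higher members numbered 1, and with a replicate block 0.

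Of 13 tested complement genes (21 listed) 3 rose and 1 fell (23.1% and 7.69%, against 4.61% and 5.7% of all tested genes). Their median log2 fold change was -0.09, and 7 of the 13 were negative. Of 13 tested costimulation and dendritic-like markers (22 listed) 4 rose (30.8%) and none fell, with 8 positive and 5 negative (median 0.31). The dendritic cell marker Zbtb46 did not pass, with 11, 19 and 17 counts with shNT and 1 and 10 with shDpep2.968. Itgax, which encodes the CD11c integrin chain and stands on both lists, was at 2.63, 1.91 and 1.80 CPM with shNT and at 8.35 and 7.71 CPM with shDpep2.968 (3.81-fold, edgeR adjusted p = 0.000117). Cd83, a surface protein of activated antigen-presenting cells, was at 16.4, 14.4 and 15.2 CPM against 31.3 and 38.3 CPM (2.27-fold, edgeR adjusted p = 8.18e-05). The receptor gene C3ar1 rose 1.77-fold (edgeR adjusted p = 0.00196). Cd274, which encodes PD-L1, and Cd40 passed at adjusted p = 0.0108 and 0.0263 by edgeR. Both lost their calls without shNT replicate 3 (0.0562 and 0.109) or shDpep2.968 replicate 2 (0.179 and 0.145), and Cd40 also without shNT replicate 1 (0.0566). The factor B gene Cfb passed at 0.0244 by edgeR and lost its call without shNT replicate 2 (0.0991), shNT replicate 3 (0.0808) or shDpep2.968 replicate 2 (0.141). With either of the last 2 libraries left out, the costimulation list had 2 higher members.

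Integrin and adhesion genes had 6 lower and 3 higher of 24 tested (28 listed, median -0.08). Those were 25% and 12.5%, against 5.7% and 4.61% of all tested genes. Spp1, which encodes osteopontin and averaged more CPM than any other gene named here, was at 20364, 19424 and 20116 CPM with shNT and at 10666 and 12596 CPM with shDpep2.968. It fell by 0.78 on the log2 scale (SE 0.12, edgeR adjusted p = 0.00111). The laminin-binding integrin gene Itga6 fell by 0.67 (edgeR adjusted p = 0.00644). Itgam, the CD11b chain and a macrophage marker, had a log2 fold change of -0.48 (edgeR adjusted p = 0.0264), which did not pass without shNT replicate 1 (0.0587) or shDpep2.968 replicate 2 (0.152). The 3 higher members, Itgav, Itga4 and Thbs1, all missed the threshold without shNT replicate 2, shNT replicate 3 or shDpep2.968 replicate 2, when the count was 0. The lower members numbered 4 without shNT replicate 2, 3 without shNT replicate 3 and 1 with a replicate block.

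Of 25 tested macrophage identity markers 1 passed higher (Fcgr1, edgeR adjusted p = 0.0366) and 1 lower (Itgam). Both shares were 4%, near the 4.61% higher and 5.7% lower of all tested genes. Fcgr1 lost its call without shNT replicate 2 or 3 (edgeR adjusted p = 0.0680 and 0.175). Among 30 tested myeloid transcription factors of 36, 7 rose and none fell (median 0.16). The higher share of these factors was 23.3%, against 4.61% of all tested genes. Id2, which blocks basic helix-loop-helix factors, was at 7.52, 5.13 and 4.49 CPM with shNT and at 16.5 and 18.7 CPM with shDpep2.968 (3.09-fold, edgeR adjusted p = 0.000126). Maf, which maintains the macrophage state, rose 2.03-fold and Batf2 1.98-fold (edgeR adjusted p = 0.00306 and 0.00830). The higher members numbered 3 without shDpep2.968 replicate 2, and 4 without shNT replicate 2 or 3, with upper-quartile factors, with limma-voom, without robust estimation and in a fit of all 7 libraries. Of 12 tested alternative activation genes 4 rose and 3 fell. Tgm2, a transglutaminase, rose 2.31-fold and Myc 1.84-fold (edgeR adjusted p = 0.000305 and 0.000495), and the lectin gene Clec10a fell by 0.73 on the log2 scale (0.0251). With either shDpep2.968 replicate 2 or shNT replicate 3 left out, 2 of these genes were higher and 0 lower, and without shNT replicate 2, 2 and 1.

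Growth-factor response genes also moved in both directions. Of 36 tested immediate early genes and dual-specificity phosphatases 6 rose and 3 fell (median 0.10). Those were 16.7% and 8.33%, against 4.61% and 5.7% of all tested genes. The phosphatases Dusp1 and Dusp2, which switch off MAP kinases, rose 1.78-fold and 1.83-fold (edgeR adjusted p = 0.000556 and 0.000265). Klf2, a transcription factor that restrains myeloid activation, was at 17, 19.8 and 23.7 CPM with shNT and at 12 and 8.93 CPM with shDpep2.968 (log2 fold change -0.95, edgeR adjusted p = 0.00376). The counts were 3 higher and 1 lower without shDpep2.968 replicate 2, and 1 lower without shNT replicate 3 or in a fit of all 7 libraries. Heat shock and cytosolic chaperone genes had 5 higher and none lower of 17 tested (median 0.34). Hsph1 was at 215, 175 and 197 CPM against 283 and 299 CPM (1.49-fold, edgeR adjusted p = 0.00654). Dnaja1, Hspa1b, Bag3 and Hspa8 also passed. The higher members numbered 1 without shNT replicate 2 or 3, 2 in a fit of all 7 libraries and 0 with a replicate block. Endoplasmic reticulum chaperones had 1 higher call of 22 (4.55%, near the 4.61% of all tested genes). It was Dnajb9 (edgeR adjusted p = 0.0101), whose call was lost without shNT replicate 3 (0.0587) and with a replicate block.

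Of 47 tested lysosomal genes 3 rose (6.38%) and 4 fell (8.51%), near the 4.61% and 5.7% of all tested genes. Gpnmb, a membrane glycoprotein of lysosomes, was at 306, 319 and 281 CPM with shNT and at 845 and 966 CPM with shDpep2.968 (log2 fold change 1.58, SE 0.12, edgeR adjusted p = 1.54e-06). Lipa, the lysosomal acid lipase, rose by 0.68 on the log2 scale (edgeR adjusted p = 0.00266). The glycosidase gene Naglu fell by 0.76 on the log2 scale (0.00683), a call lost without shDpep2.968 replicate 2 (0.0513), when the lower members numbered 2. With the GC and length offsets 9 lysosomal members were higher, without shNT replicate 1 there were 5, and with a replicate block 1. Of 28 tested glutathione and NRF2 genes 3 rose (10.7%) and 2 fell (7.14%), against 4.61% and 5.7% of all tested genes. The haem oxygenase gene Hmox1 was at 668, 584 and 556 CPM against 928 and 1091 CPM (1.68-fold, edgeR adjusted p = 0.00170), and the biliverdin reductase gene Blvrb fell by 0.98 (0.00376). The higher members numbered 1 without shNT replicate 2 or shDpep2.968 replicate 2, 5 without shDpep2.968 replicate 1 and 9 with the offsets, and 1 in a fit of all 7 libraries.

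Several groups showed few or no calls. None of 33 oxidative phosphorylation genes, 34 G2/M genes or 15 mitochondrially encoded genes passed by edgeR, where 7, 8 and 0 had an unadjusted p under 0.05. DESeq2 called 1, 2 and 0, and limma-voom 0 in each. Without shNT replicate 1 or shDpep2.968 replicate 1, 3 oxidative phosphorylation genes were lower, and 2 or 3 G2/M genes were higher. The smallest adjusted p-values by edgeR were 0.0581 for Uqcrq (log2 fold change -0.49) and 0.0504 for Bub1 (0.43). Of 30 tested glycolysis and hypoxia genes Ndrg1 and Aldoa fell, by 0.72 and 0.55 on the log2 scale (edgeR adjusted p = 0.00123 and 0.00948). The lower share of that list was 6.67%, near the 5.7% of all tested genes. Pgam1 passed higher at 0.0428 and lost its call without any 1 of 4 libraries, all except shNT replicate 1 (0.0504 to 0.217). Of 43 G1/S genes 4 passed higher (9.3%, against 4.61% of all tested genes), among them Cdc25a, Ccne2 and Mcm10. The median log2 fold change of the 43 was 0.22, and 34 were positive. In 27 both shDpep2.968 libraries lay above all shNT libraries, as they did in 20.9% of all tested genes. The higher G1/S members numbered 1 without shNT replicate 2 or 3 and in a fit of all 7 libraries. There were 7 without shDpep2.968 replicate 1 and 15 with the GC and length offsets. Of 28 tested p53 targets Plk2 and Mdm2 rose (7.14%) and Gadd45a and Xpc fell (7.14%), near the 4.61% and 5.7% of all tested genes. Plk2 had a log2 fold change of 0.74 (edgeR adjusted p = 0.00314), lost without shDpep2.968 replicate 2 (0.0728), and the other 3 calls were lost when any 1 of shNT replicates 2 and 3 and shDpep2.968 replicate 2 was left out (0.0699 to 0.169).

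Of the 12 largest increases by the naming rule, 1 stood outside the lists. Neo1, which encodes the netrin and RGM receptor neogenin, was at 4.83, 4.63 and 3.03 CPM with shNT and at 14.2 and 14.7 CPM with shDpep2.968 (3.47-fold, edgeR adjusted p = 7.02e-05). Both shDpep2.968 libraries were close to each other and well above the 3 controls.

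To show where shDpep2.968 differed from the second hairpin, all 7 libraries were fitted together and the hairpins were compared directly. By edgeR's test 116 of 13200 genes (0.879%) differed, 35 higher (0.265%) and 81 lower (0.614%) with shDpep2.968, and 1992 reached an unadjusted p under 0.05. Of the 1361 genes changed with shDpep2.968 against shNT, 51 also differed between the hairpins, and the other 1310 did not pass, which does not show that they were alike. Leaving out shDpep2.968 replicates 1 or 2 brought the 116 genes to 14 or 6, and leaving out shDpep2.759 replicates 1 or 2 to 38 or 1098. For Dpep2 itself the difference did not pass (log2 difference -0.14, edgeR adjusted p = 0.716, with -0.51 to 0.23 as the 95% interval).

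The genes that separated the hairpins held in part the same programmes. Abca1 was at 19.5, 16.7 and 15.6 CPM with shNT, at 9.60 and 7.60 CPM in the shDpep2.968 libraries and at 33.2 and 33.8 CPM in the shDpep2.759 libraries. So the exporter was below control with one hairpin and above it with the other, and the log2 difference was -1.96 (SE 0.18, edgeR adjusted p = 0.000724). Ocstamp reached 18.2 and 15.8 CPM with shDpep2.968, whereas shDpep2.759 left it at 5.23 and 5.52 CPM, within the range of 4.63 to 5.68 CPM of shNT (log2 difference 1.66, SE 0.20, edgeR adjusted p = 0.00413). Plau showed the same order, at 329 and 484 CPM, while shDpep2.759 gave 184 and 193 CPM and shNT 165 to 188 CPM (log2 difference 1.11, edgeR adjusted p = 0.0140). Without shDpep2.968 replicate 2, Plau did not pass (0.166).

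Ccl22 and Slamf7 were above the control range with shDpep2.759 and not with shDpep2.968 in both libraries. The chemokine gene Ccl22 reached 18.5 and 14.7 CPM with shDpep2.759, and had 2.26 and 3.22 CPM with shDpep2.968 and 3.88 to 5.68 CPM with shNT (log2 difference -2.60, edgeR adjusted p = 0.00154). Slamf7, a receptor of activated macrophages, reached 36.0 and 31.2 CPM with shDpep2.759, and had 4.28 and 8.69 CPM with shDpep2.968 and 4.21 to 6.40 CPM with shNT (log2 difference -2.37, edgeR adjusted p = 0.0109). With shDpep2.968, Ccl22 lay below the control range in both libraries, and Slamf7 within it in 1 and above it in the other. Plekha3 went the other way, with 81.2 and 89.99 CPM against 34.5 and 39.5 CPM (log2 difference 1.21, edgeR adjusted p = 0.00299).

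For Scd1 the levels were 4.16 and 2.764 CPM in the shDpep2.968 libraries and 18.4 and 4.52 CPM in the shDpep2.759 libraries, against 66.7 to 93.1 CPM with shNT. The 2 shDpep2.759 libraries differed from each other, and the log2 difference of -1.73 between the hairpins did not pass (95% interval -3.66 to 0.21, edgeR adjusted p = 0.373). Il1a was at 53.4 and 74.4 CPM against 74.9 and 78.5 CPM (log2 difference -0.26, 95% interval -0.78 to 0.26). Ifit3 was at 45.1 and 60.9 CPM against 65.7 and 49.1 CPM (log2 difference -0.12, 95% interval -0.50 to 0.26). The median log2 fold change over shNT was, for shDpep2.968 and shDpep2.759 in that order, -0.70 and -0.60 in sterol genes, 1.34 and 1.11 in the GTPases, -0.46 and -0.05 in LXR targets and 0.34 and 0.03 in heat shock genes. Those pairs of values share the 3 shNT libraries and are given side by side only, the first from the 5 libraries and the second from all 7.

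**Figure D4:**
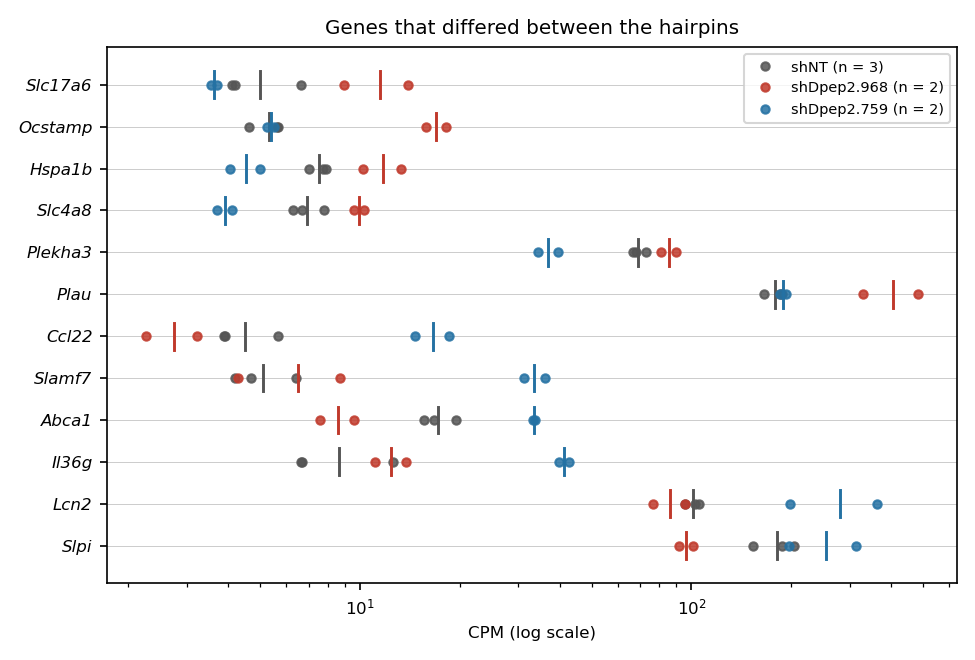
CPM on a log scale (horizontal axis) of the genes with the largest differences between hairpins that passed, in each of 7 libraries. Grey points are shNT (n = 3), red points shDpep2.968 (n = 2), blue points shDpep2.759 (n = 2) and short vertical lines the group means, and for Abca1, Ccl22, Plekha3, Hspa1b, Slc17a6 and Slc4a8 both libraries of one hairpin lie above shNT and both of the other below it.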

How the data were processed

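The deposited table held whole-number counts per gene symbol for 7 libraries. Per the labels' protocols, a TIANGEN kit gave total RNA for stranded libraries, sequenced in pairs of 150 bases. Trim Galore, Salmon and a human build, hg38, are named per the submitters' processing notes, although the symbols are mouse. Not given in the sources used here are the annotation, whether strand was used in counting, and whether the authors rounded Salmon estimates to counts, which would divide reads of near-identical genes by a model.

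Groups followed the hairpin in the labels. In R 4.3.3, edgeR 4.0.16 scaled the 5 libraries by TMM, fitted 1 mean per group (3 residual degrees of freedom, biological coefficient of variation 12.0%) and applied the robust quasi-likelihood test. Values were Benjamini-Hochberg adjusted over all 13200 genes, with a threshold of 0.05. CPM used TMM-scaled library sizes, and comparisons between hairpins used the fit and scale of 7 libraries. The fit was tested on simulated data. DESeq2 1.42.0 and limma-voom (limma 3.58.1) were alternatives, as were other scalings, filters, GC and length offsets (GENCODE M21 transcripts, splines with 5 degrees of freedom, 95.9% of tested genes covered), a replicate block, and leaving out each library.

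The naming rule took Dpep2 and the 12 increases and 12 decreases of largest size among genes that passed, averaged at least 5 CPM, had groups without overlap and were not named as clones, models or pseudogenes. From each of the 37 lists it added up to 4 passing members by smallest p (2 as values if none passed), and up to 6 genes in each direction between hairpins. Other members are named for a complete account of small counts, or with a printed sequence, and were chosen after their values were seen. Some genes that the rule chose are not reported here. The members, lists and tests were chosen with earlier results of these data known, and the lists support no direction by themselves.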

Additional observations from a re-analysis of the deposited data

Results flagged for a closer look

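For 18 of the named genes the response to shDpep2.968 differed from that to shDpep2.759 by a direct test (edgeR quasi-likelihood over all 7 libraries, adjusted p under 0.05). Of all tested genes 0.879% did so. The 6 higher genes and the first 6 lower genes given next were named because they passed this test. Their passing was therefore fixed by that choice, and the 18 is not a share to set against all genes. Higher with shDpep2.968 were Slc17a6, Ocstamp, Hspa1b, Slc4a8, Plekha3 and Plau, by log2 differences of 1.66, 1.66, 1.38, 1.35, 1.21 and 1.11. Lower with shDpep2.968 were Ccl22 (-2.60), Slamf7 (-2.37), Abca1 (-1.96), Il36g (-1.73), Lcn2 (-1.71), Slpi (-1.40), Cth (-1.24), Blvrb (-1.15), Cd83 (-0.91), Tnfrsf1b (-0.90), Lpcat3 (-0.83) and Tnfaip3 (-0.82). The calls of Ocstamp, Abca1, Plekha3, Ccl22 and Slamf7 were kept without each of the 4 hairpin libraries in turn. The other 13 were lost without shDpep2.968 replicate 2 (adjusted p from 0.0640 to 0.354). Of those 13, all but Plau and Slc17a6 were also lost without shDpep2.968 replicate 1 (0.0671 to 0.122).

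The genes of this set had different control levels and roles. Lcn2, which encodes the iron-scavenging lipocalin, had 76.6 and 95.7 CPM with shDpep2.968, 364 and 199 CPM with shDpep2.759 and 95.7 to 105 CPM with shNT. Cth was below the shNT range of 31.8 to 44.6 CPM with both hairpins, with 8.91 and 8.29 CPM for shDpep2.968 and 25.1 and 15.6 CPM for shDpep2.759. Tnfrsf1b was above the shNT range of 225 to 270 CPM with both, at 378 and 415 CPM against 767 and 712 CPM. Cd83 was likewise above the shNT range with both, at 31.0 and 38.1 CPM against 66.7 and 62.6 CPM.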

How the results depend on the processing

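Dpep2 kept its call under all 18 alternatives, with log2 fold changes of -1.64 to -1.32. The 1361 changed genes became 707 in a fit of all 7 libraries and 2478 with GC and length offsets (1266 shared), and 495 to 2054 when 1 library was left out. Without a low-count filter 1806 passed, with DESeq2 1392 (1025 genes without an adjusted p), and other scalings and filters gave 1337 to 1379. With limma-voom 1047 passed, and 1091 by edgeR without robust estimation. With upper-quartile factors 528 were higher and 851 lower. The 116 genes differing between hairpins became 378 with DESeq2, 62 with the 4 hairpin libraries only and 6 to 1098 with 1 hairpin library left out. The causes were not tested.

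Between libraries of the same replicate number, deviations from the group means correlated at -0.24 and -0.21 over 2 pairs. The deviations of the 2 shDpep2.968 libraries mirror each other, so these values cannot show whether replicate numbers pair the libraries. With the replicate block 332 genes changed (309 shared), 1036 with GC and length offsets as well, and 335 differed between hairpins. Of 127 called genes named, 49 lost their calls under the block, 20 in the fit of all 7 libraries, 23 and 27 without shNT replicates 2 and 3, and 40 without shDpep2.968 replicate 2. In all, 85 kept their calls without each library in turn. No called gene reversed. Genes that had not passed and reversed were mt-Rnr2 (log2 fold change -0.14 with GC and length offsets, -0.18 with those and the block), and, without shDpep2.968 replicate 2, mt-Rnr2, mt-Rnr1 and Slamf7. With 1 library left out, mt-Rnr2 ranged from -0.070 to 0.46, mt-Rnr1 from -0.055 to 0.82 and Slamf7 from -0.25 to 0.77. Below 1 CPM the median SE of 0.53 limits calls to large differences.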

Other observations

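In 4 genes, clone-named or pseudogenes, at most 1 count was found in each library of one group and at least 10 in each of the other. Pin4-ps had 38, 79 and 76 counts with shNT and 0 and 0 with shDpep2.968, and Gm12184 had 10, 38 and 52 against 0 and 0. Gm20507 had 0, 0 and 0 counts with shNT and 17 and 19 with shDpep2.968, and Gm5851 had 0, 1 and 0 against 15 and 11. With shDpep2.759, Pin4-ps stood at 0.450 and 0 CPM and Gm20507 at 0 in both libraries. These symbols can share reads with their parent genes or close copies, so their counts are uncertain. Among 343 tested pseudogenes, 10 were higher and 22 lower with shDpep2.968 (9.33%).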
